A study of Mus musculus with 22 samples.

Results

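The hnRNP A1 footprints on 8 genes of synaptic vesicle release were examined in the spinal cords of naïve mice and mice with experimental autoimmune encephalomyelitis (EAE). The genes were chosen by name for their role at the presynaptic terminal and are Syn1, Syn2, Sv2a, Syp, Snap25, Vamp2, Syt1 and Rims1. A footprint belonged to a gene when it overlapped the gene's span by at least 1 nt. All 8 genes held a footprint in at least 1 mouse, among 13948 genes that did so, and they carried 205 footprints in total.

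All mice were female C57Bl/6. EAE was induced by immunisation with the myelin peptide MOG(35-55), emulsified in complete Freund's adjuvant, together with pertussis toxin, at 12 weeks of age according to the sample labels and at 8 weeks according to the design text. The 7 EAE mice were sacrificed at 15 days after clinical onset, with 3 age-matched untreated naïve mice. Mild EAE mice 3, 4 and 7 had clinical scores of 1.5, 1.5 and 1.0, and severe EAE mice 1, 2, 5 and 6 had scores of 2.5, 3.0, 2.5 and 3.0. Mice are numbered as in the labels, where naïve and EAE mice of the same number are different animals. The tissue was UV crosslinked and hnRNP A1 was immunoprecipitated with RNase I present, which gave 1 library per mouse from whole spinal cord. Because the cord is a mixture of cells and the lists hold positions only, fewer neurons, less RNA per neuron and less binding by hnRNP A1 cannot be told apart here.

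hnRNP A1 is a nuclear RNA-binding protein that acts in splicing, export and stability of transcripts and is known to favour UAG-containing RNA. The genes examined encode the core of transmitter release. Synapsins tether vesicles to one another and to actin, SV2A and synaptophysin sit in the vesicle membrane, and SNAP-25 and VAMP2 are SNARE proteins whose pairing with syntaxin fuses the vesicle with the plasma membrane. Synaptotagmin-1 is the calcium sensor that triggers fusion, and RIM1 is the active zone scaffold that docks vesicles near calcium channels.

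The sequences on which the results below turn are printed 5′ to 3′ on the strand of the gene, from GRCm38, with TAG (UAG in the RNA) in capitals. The stretch of intron 5 of Rims1 at chr1:22584548-22584826 (minus strand, 279 nt) was common to the footprints of 6 mice, in all 3 groups.
Rims1 intron 5: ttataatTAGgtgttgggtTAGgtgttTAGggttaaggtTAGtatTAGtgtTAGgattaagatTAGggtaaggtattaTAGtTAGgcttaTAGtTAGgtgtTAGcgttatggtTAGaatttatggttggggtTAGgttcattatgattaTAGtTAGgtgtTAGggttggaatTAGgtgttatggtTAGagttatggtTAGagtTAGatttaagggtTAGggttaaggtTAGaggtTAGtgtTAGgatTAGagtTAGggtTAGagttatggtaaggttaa
In intron 8 of Syt1, naïve mouse 2 held a footprint at chr10:108629689-108629902 (minus strand, 214 nt) inside a tandem repeat, and the stretch of intron 4 at chr10:108804619-108804748 (minus strand, 130 nt) was covered at each base by at least 2 of 3 mice, 1 of each group.
Syt1 intron 8: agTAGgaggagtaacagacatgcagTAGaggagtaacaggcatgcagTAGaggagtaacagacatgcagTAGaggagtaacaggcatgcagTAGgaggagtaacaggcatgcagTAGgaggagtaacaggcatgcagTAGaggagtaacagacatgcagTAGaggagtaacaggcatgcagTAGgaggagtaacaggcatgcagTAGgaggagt
Syt1 intron 4: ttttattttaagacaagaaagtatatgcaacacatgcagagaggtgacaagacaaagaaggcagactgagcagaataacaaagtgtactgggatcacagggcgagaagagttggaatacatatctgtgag
Exon 5 of Snap25 exists as an upstream and a downstream copy, of which a mature transcript carries one. The upstream copy lies at chr2:136769743-136769860 and the downstream copy at chr2:136770057-136770174 (plus strand, 118 nt each). Exon 6 follows at chr2:136773895-136774020 (plus strand, 126 nt). These are shown because the exons footprinted in naïve and EAE mice differed.
Snap25 exon 5, upstream copy: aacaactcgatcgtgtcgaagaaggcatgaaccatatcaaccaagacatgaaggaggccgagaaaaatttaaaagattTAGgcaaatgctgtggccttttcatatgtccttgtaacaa
Snap25 exon 5, downstream copy: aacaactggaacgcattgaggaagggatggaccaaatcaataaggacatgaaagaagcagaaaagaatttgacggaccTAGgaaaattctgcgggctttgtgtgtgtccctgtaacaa
Snap25 exon 6: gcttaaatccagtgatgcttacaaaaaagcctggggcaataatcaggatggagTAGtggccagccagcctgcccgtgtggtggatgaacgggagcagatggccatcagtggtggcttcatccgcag
In Sv2a and Syp, the stretches common to the most mice lie in exon 2 at chr3:96185199-96185277 (plus strand, 79 nt) and in the 3′ UTR at chrX:7653071-7653100 (plus strand, 30 nt).
Sv2a exon 2: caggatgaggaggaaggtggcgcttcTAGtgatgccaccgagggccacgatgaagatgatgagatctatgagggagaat
Syp 3′ UTR: tctgctgtgtctgtgacgttggTAGtgcct

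The letters TAG were searched on the gene's strand only. The Rims1 stretch holds 28 TAG, 14 TTAGG and 11 AGGT, where each TTAGG contains a TAG. Of 1862 stretches of the same length that tile Rims1, 91.4% hold at least 1 TAG, with a median of 4, and 2 hold 28 or more. The Syt1 intron 8 footprint holds 10 TAG, against a median of 3 in 2398 tiles of that length, of which 94.9% hold at least 1 and 9 hold 10 or more. The Syt1 intron 4 stretch holds 0 TAG, while 84.6% of 3948 tiles hold at least 1. The Snap25 exons hold 1 TAG each, where 80.7% of 584 tiles of 118 nt and 83.0% of 547 tiles of 126 nt hold one. The Sv2a and Syp stretches also hold 1 each, against 57.5% of 181 tiles and 28.7% of 492 tiles with one. The richness in TAG thus belonged to the Rims1 stretch and the Syt1 repeat among the sequences printed.

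The footprint lists differed in length between mice before any gene was considered. Naïve mice held 17119 to 17494 footprints and mild EAE mice 9751 to 24433. Severe EAE mouse 5 held 31870, and severe EAE mice 1, 2 and 6 held 2670, 209 and 673. The 8 neuron markers examined, all footprinted in each group, summed to 2770 to 6363 covered nt per naïve mouse, 2409 to 4418 per mild EAE mouse and 0 to 9539 per severe EAE mouse. Of the 8 microglia and leukocyte markers, 1 was footprinted in naïve mice (C1qb) and the other 7 were at 0, with sums of 0 to 131 nt, against 8 of 8 and 1126 to 3577 nt in mild EAE and 7 of 8 and 0 to 4530 nt in severe EAE, where Ptprc was at 0. The 5 oligodendrocyte markers ran from 751 to 2082 nt in naïve, 1721 to 3031 nt in mild EAE and 0 to 5026 nt in severe EAE mice, and the 5 astrocyte markers from 1295 to 3742, 2514 to 5485 and 0 to 9460 nt, with Gfap at 0 in mild EAE. The parts of cell makeup and list length in the values below were not tested. Values are given as covered nt, the number of bases of the gene under footprints in a mouse. How many reads lie behind a footprint is unknown.

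Together the 8 genes had 6336, 3219 and 3567 covered nt in naïve mice 1, 2 and 3. Mild EAE mice 3, 4 and 7 had 1448, 1604 and 2789 covered nt. Severe EAE mice 1, 2, 5 and 6 had 595, 0, 6689 and 122 covered nt. Every naïve mouse thus lay above every mild EAE mouse, while severe EAE mouse 5 lay above all others. The mean fell from 4374 ± 1708 nt (SD, n = 3) in naïve mice to 1892 ± 2327 nt (SD, n = 7) in EAE animals, which is a difference of -2482 nt that was given no test because the genes were chosen as a group. Without naïve mouse 1 it was -1501 nt and without severe EAE mouse 5 -3281 nt. Per 1000000 covered nt of a mouse, the genes took 2854, 1566 and 1631 nt in naïve mice, 935, 1387 and 934 nt in mild EAE mice and 1802, 0, 1615 and 1605 nt in severe EAE mice. On that scale naïve and mild EAE mice still did not overlap, and 3 of the 4 severe EAE mice lay within the naïve range. Of these, severe EAE mice 1 and 6 held only 5 footprints and 1 footprint on the 8 genes. The separation of naïve from mild EAE mice rested on Syt1. That gene supplied 2795, 1506 and 1161 covered nt in naïve and 0, 472 and 433 in mild EAE mice. Without Syt1 the naïve and mild EAE mice overlapped on both scales.

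**Figure D1:**
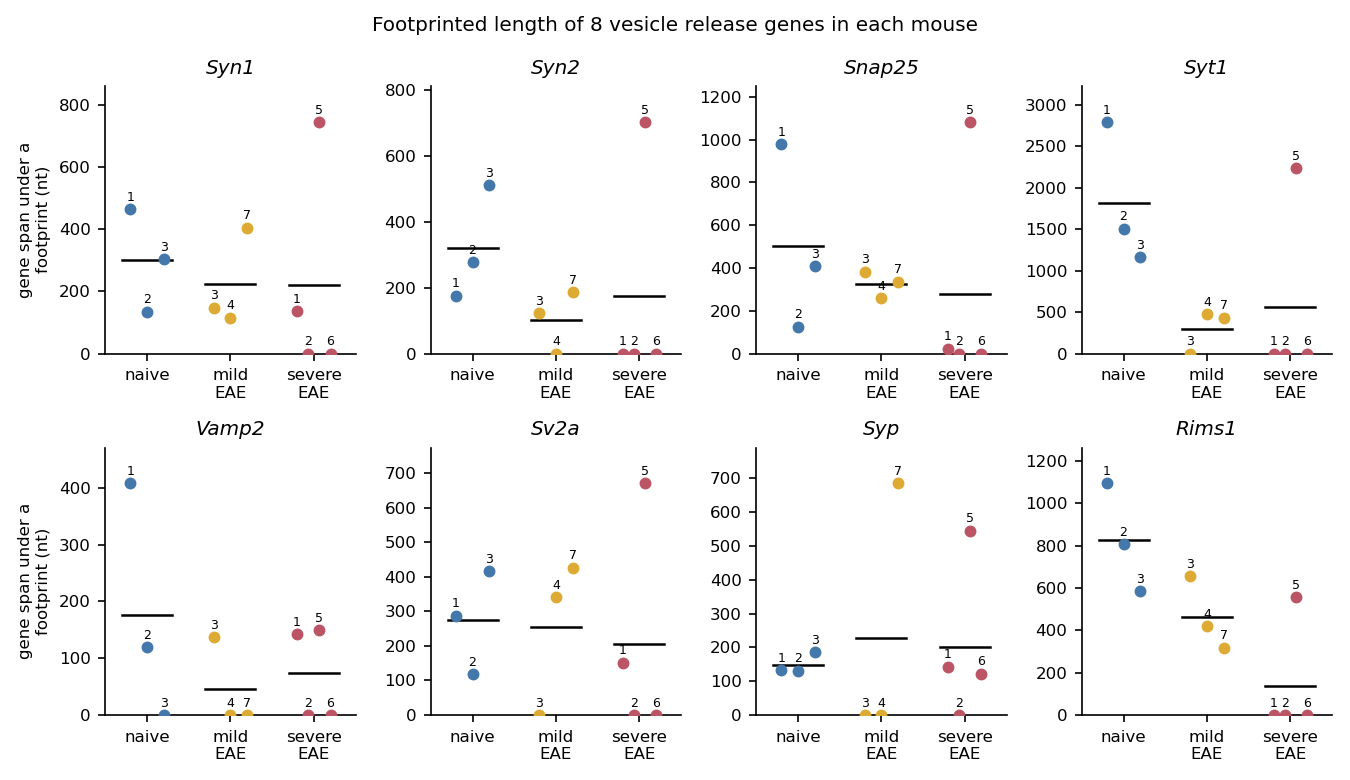
Covered nt of each gene (1 panel per gene, linear axis in nt) in the 10 mice, with a point per mouse and a line at the group mean. Severe EAE mouse 5 stands above the other 3 severe EAE mice in each panel, and in Syt1 the naïve mice, at 1161 to 2795 nt, lie above all mild EAE mice.

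In the comparison of all EAE with naïve mice, 7 of the 8 genes had a lower mean in EAE, with Syp the exception. The median difference over the 8 genes was -146 nt, against -11.6 nt over the 13948 genes, of which 53.7% were lower. Most of the 8 genes were footprinted in all naïve mice and most of the 13948 were not, so these medians and direction counts compare sets of unlike coverage. The same 7 genes were lower in mild EAE and in severe EAE taken alone, though these comparisons share the naïve mice. With an exact two-sided permutation test on covered nt and Benjamini-Hochberg adjustment over all 13948 genes, 0 of the 8 genes and 0% of all genes passed an adjusted p of 0.05. The lowest adjusted p of any gene was 0.930, and 416 genes had an unadjusted p under 0.05, 415 of them lower in EAE. The 120 possible splits of 7 against 3 mice allow no p below 0.00833. Lower in EAE at an unadjusted p under 0.05 were 2 of the 8 genes, Syt1 and Rims1, and 2.98% of all genes. None of the 8 genes had every naïve mouse above every EAE mouse, a pattern held by 0.961% of genes. In mild EAE against naïve mice the smallest possible p was 0.1, so no gene could pass, and in severe EAE against naïve mice 0 of 12354 genes passed the adjusted threshold while 232 had an unadjusted exact p under 0.05, none of them among the 8.

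Footprints were present in all 3 naïve mice on 7 of the 8 genes, all but Vamp2, against 16.6% of all genes. They were present in all 3 mild EAE mice on 3 of the 8, Syn1, Snap25 and Rims1, against 15.4% of all genes. Footprints on an exon of another gene count here, and their strand is unknown. Only such footprints were held by Syn2 in naïve mouse 1 (Timp4), Syp in naïve mouse 2 (Gm14703) and Syn1 in mild EAE mouse 3 (Timp1). The genes differ greatly in length, and per 1000 nt of span a mouse covered on average 24.6 nt of Vamp2, 16.8 of Sv2a, 13.1 of Syp, 5.21 of Snap25, 4.05 of Syn1, 1.68 of Syt1, 1.34 of Syn2 and 0.854 of Rims1. The short genes thus stood first and the long genes Syt1 and Rims1, at 513333 and 519744 nt, near the end of that order. These levels are means over 10 mice that differ in list length, and neighbours in the order were not tested against one another.

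Among the synapsins, Syn1 (ENSMUSG00000037217.15, chrX:20860511-20921004, minus strand) carried 23 footprints in 8 mice. In the order of mice given above, the covered nt of Syn1 were 464, 135 and 303 in the naïve group, 148, 115 and 405 with mild EAE and 136, 0, 745 and 0 with severe EAE. The groups overlapped, and the EAE mean of 221 ± 268 nt (SD, n = 7) differed from the naïve mean of 301 ± 165 nt (SD, n = 3) by -79.4 nt (exact permutation p = 0.642). A stretch of 132 nt of its 5′ UTR in exon 1 was covered by at least 2 of naïve mouse 1, mild EAE mouse 4 and severe EAE mouse 5 at each base. Exons 7 and 8 were footprinted in mild EAE mouse 7 and severe EAE mouse 5 and in no naïve mouse. A stretch of 136 nt of the 3′ UTR was shared by severe EAE mice 1 and 5. All 7 intronic footprints of Syn1 lay in intron 5, which takes 68.1% of the gene. Of these, 4, in mild EAE mice 3 and 7, lie on exons of Timp1, an inhibitor of matrix metalloproteinases encoded on the opposite strand inside that intron. The lists carry no strand, so Syn1 and Timp1 RNA cannot be told apart there.

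Syn2 (ENSMUSG00000009394.13, chr6:115134902-115282006, plus strand) carried 18 footprints in 6 mice. Syn2 covered nt were 176, 277 and 511 in the naïve group, 122, 0 and 186 with mild EAE and 0, 0, 704 and 0 with severe EAE. All naïve mice were footprinted, while 4 of the 7 EAE mice had none. In naïve mouse 1 the only footprint lay on an exon of Timp4, which is described below. The EAE mean of 145 ± 258 nt (SD, n = 7) against 321 ± 172 nt (SD, n = 3) gave a difference of -177 nt (exact permutation p = 0.35). Without naïve mouse 3 it was -81.9 nt (exact permutation p = 0.778). Leaving out severe EAE mouse 5 gave -270 nt (exact permutation p = 0.0238). Naïve mouse 3 and mild EAE mice 3 and 7 each held footprints that ran to the end of exon 7 and began at the start of exon 8, an exon junction read from both sides. As in Syn1, 3 intronic footprints, in naïve mice 1 and 3 and severe EAE mouse 5, lie on an exon of a metalloproteinase inhibitor gene on the opposite strand, here Timp4.

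Of the vesicle membrane proteins, Sv2a (ENSMUSG00000038486.9, chr3:96181151-96195521, plus strand) carried 16 footprints in 7 mice, none of them intronic. Covered nt in Sv2a were 287, 118 and 416 in the naïve group, 0, 340 and 426 with mild EAE and 151, 0, 670 and 0 with severe EAE. The ranges overlapped throughout, with means of 227 ± 261 nt (SD, n = 7) in EAE and 274 ± 149 nt (SD, n = 3) in naïve mice (difference -47.0 nt, exact permutation p = 0.792). The exon 2 stretch printed above, in coding sequence, was common to naïve mouse 1, mild EAE mice 4 and 7 and severe EAE mouse 5. The last exon, mostly 3′ UTR, was footprinted in naïve mice 2 and 3, mild EAE mouse 4 and severe EAE mouse 1, and a stretch was shared only between mild EAE mouse 4 and severe EAE mouse 1 there.

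Syp (ENSMUSG00000031144.15, chrX:7638471-7653256, plus strand) carried 18 footprints in 7 mice. For Syp the covered nt were 132, 131 and 185 in the naïve group, 0, 0 and 685 with mild EAE and 143, 0, 545 and 122 with severe EAE. The naïve values lay close together and inside the EAE range, and the EAE mean of 214 ± 284 nt (SD, n = 7) exceeded the naïve mean of 149 ± 30.9 nt (SD, n = 3) by 64.2 nt (exact permutation p = 0.825). That sign rested on mild EAE mouse 7, since without it the difference was -14.3 nt. The last exon held footprints in 4 EAE mice (mild mouse 7 and severe mice 1, 5 and 6) and in naïve mouse 2. That of naïve mouse 2 and 1 of mild EAE mouse 7 also lay on an exon of Gm14703, an antisense gene. All 4 EAE mice covered the 30 nt of 3′ UTR printed above and naïve mouse 2 did not. Severe EAE mouse 6 had no other footprint in any of the 8 genes. Exons 1, 2, 4 and 5 were footprinted up to at least 1 of their ends in both mild EAE mouse 7 and severe EAE mouse 5, in no naïve mouse.

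Snap25 (ENSMUSG00000027273.13, chr2:136713453-136782428, plus strand), the SNARE of the plasma membrane, carried 30 footprints in 8 mice. In Snap25 the covered nt were 979, 125 and 407 in the naïve group, 383, 258 and 336 with mild EAE and 22, 0, 1083 and 0 with severe EAE. The mild EAE mice lay inside the naïve range, and severe EAE mouse 5 was the highest of all. The means of 297 ± 383 nt (SD, n = 7) in EAE and 504 ± 435 nt (SD, n = 3) in naïve mice differed by -206 nt (exact permutation p = 0.483).

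Within Snap25, naïve and EAE mice held footprints on different exons, a difference that was not tested. Naïve mouse 1 covered exons 2, 3, 4 and 5 whole, one after the other. Naïve mouse 3 covered exon 5 whole, and naïve mouse 2 held a single intronic footprint. Over exons 2 to 5, naïve mice had 343, 0 and 118 covered nt and all 7 EAE mice had 0. Exons 6 and 7 showed the opposite distribution, with 271, 126 and 19 covered nt in mild EAE mice 3, 4 and 7, 22, 0, 271 and 0 with severe EAE, and 0 in the 3 naïve mice. Exon 6 was covered whole in mild EAE mice 3 and 4 and severe EAE mouse 5, and at its start in mild EAE mouse 7 (19 nt) and severe EAE mouse 1 (22 nt). These patterns were noticed in the data and the counts that follow are descriptions. Of 41360 footprinted protein-coding exons, 56 (0.135%) were footprinted in at least 5 EAE mice and no naïve mouse, among them exon 6 as the single exon from these 8 genes. The reverse, at least 2 naïve mice and no EAE mouse, held for 937 exons (2.27%), among them the downstream copy of exon 5.

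The 2 copies of exon 5 are 73.7% identical and differ at 31 of 118 positions, so that a footprint of this length can be assigned to one of them. The downstream copy, known as the main form of the adult brain, was footprinted in naïve mice 1 and 3. The upstream copy was footprinted in 0 of the 10 mice. The start of exon 8 was footprinted in naïve mouse 1 (22 nt), mild EAE mice 3 and 7 (69 nt each) and severe EAE mouse 5 (46 nt), and exon 1 in mild EAE mice 3 and 4 and severe EAE mouse 5. All 7 intronic footprints of Snap25 lay in intron 1, 6 of them in naïve mice and 1 in severe EAE mouse 5. Snap25 also held 7 of the 34 exon junctions that had footprints on both sides in the same mouse, the most among the 8 genes.

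**Figure D2:**
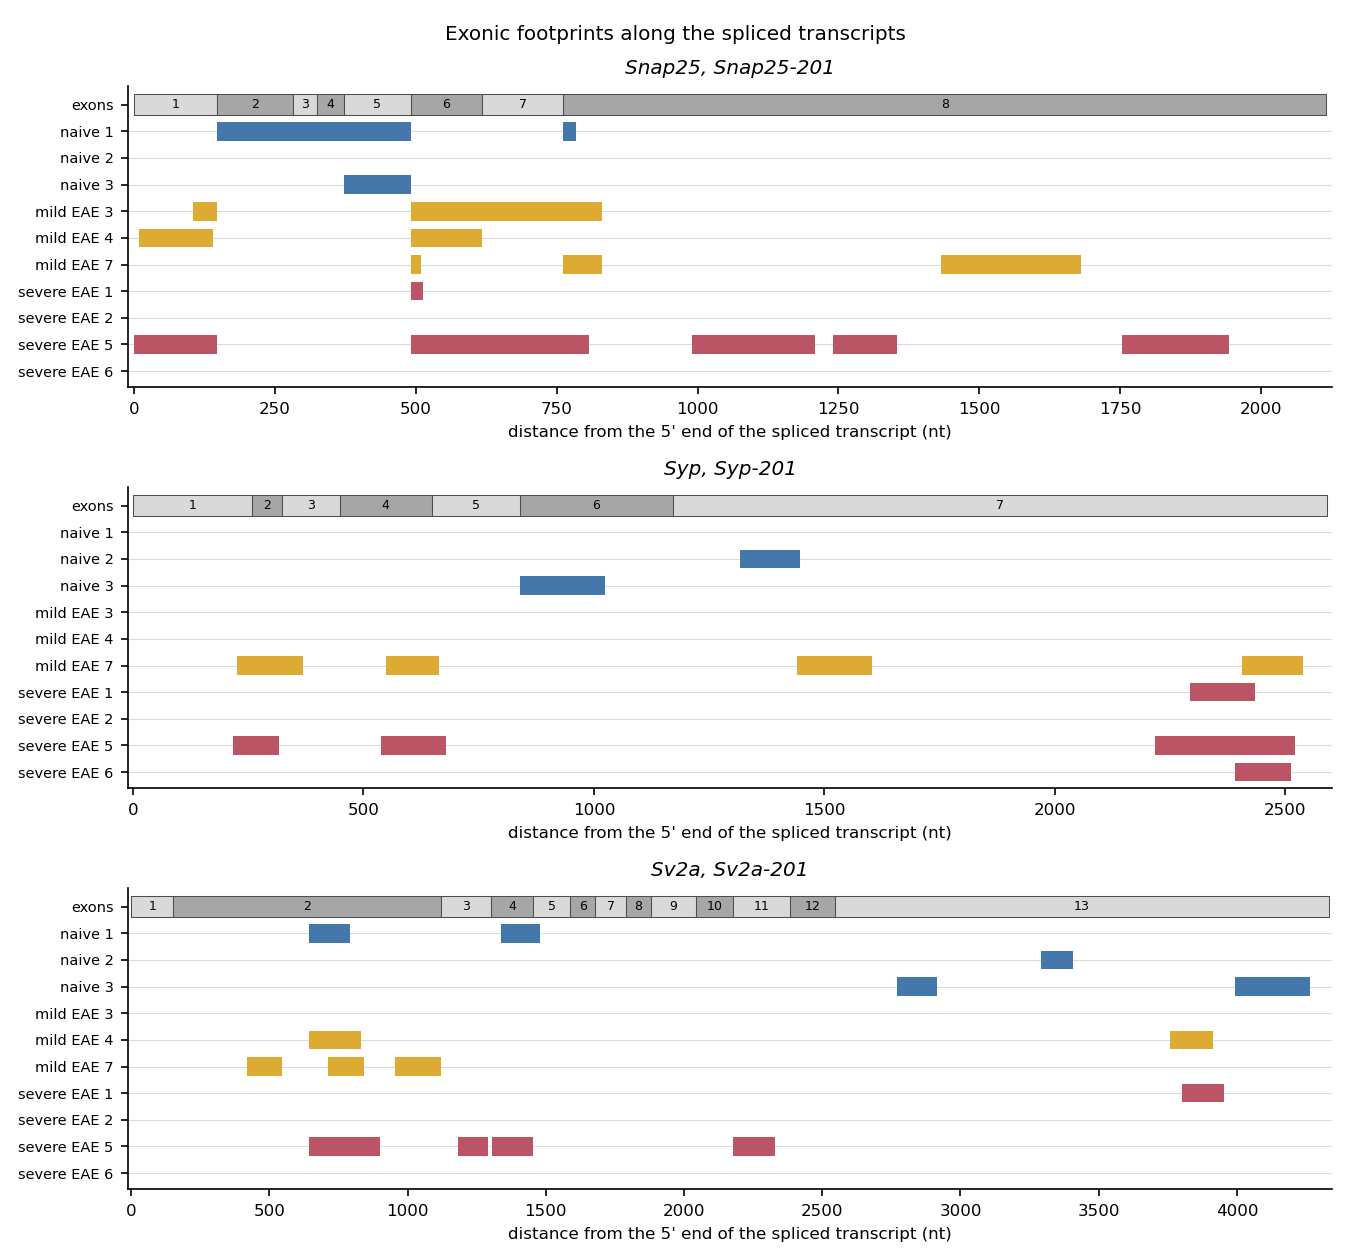
Exonic footprints on the spliced reference transcripts of Snap25, Syp and Sv2a (x axis in nt from the transcript's 5′ end, 1 line per mouse, numbered exons as boxes at the top). In Snap25 naïve mouse 1 covers exons 2 to 5, naïve mouse 3 exon 5 and naïve mouse 2 no exon, EAE mice cover parts of exons 1, 6, 7 and 8, with its start also covered in naïve mouse 1, and in Syp 4 EAE mice overlap near the transcript's end.

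Vamp2 (ENSMUSG00000020894.16, chr11:69088490-69092384, plus strand), the SNARE of the vesicle, is the shortest of the genes at 3895 nt and carried 7 footprints in 5 mice. As covered nt, Vamp2 had 408, 119 and 0 in the naïve group, 137, 0 and 0 with mild EAE and 143, 0, 150 and 0 with severe EAE. The higher naïve mean rested on naïve mouse 1, since without it the EAE mice exceeded the naïve mice by 1.93 nt. The means were 61.4 ± 76.7 nt (SD, n = 7) in EAE and 176 ± 210 nt (SD, n = 3) in naïve mice (difference -114 nt, exact permutation p = 0.3). Naïve mouse 1 covered most of exon 1 and the whole of exons 2 and 3. All other Vamp2 footprints lay in the long 3′ UTR, where severe EAE mice 1 and 5 overlapped. Of its 3895 nt, 3809 lie in an exon of at least 1 transcript, so intronic footprints could hardly be assigned.

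Syt1 (ENSMUSG00000035864.14, chr10:108497650-109010982, minus strand) showed the largest difference of the 8 genes. Its covered nt were 2795, 1506 and 1161 in naïve mice 1, 2 and 3. Mild EAE mice 3, 4 and 7 had 0, 472 and 433 covered nt, and severe EAE mice 1, 2, 5 and 6 had 0, 0, 2235 and 0. All naïve mice lay above all EAE mice apart from severe EAE mouse 5, which lay between naïve mice 1 and 2. The mean was 449 ± 816 nt (SD, n = 7) in EAE and 1821 ± 861 nt (SD, n = 3) in naïve mice, a difference of -1372 nt (exact permutation p = 0.0417, adjusted p = 0.956). Mild EAE mice differed from naïve mice by -1519 nt without overlap, at the smallest p that 3 against 3 mice allow (exact permutation p = 0.1). Without naïve mouse 1 the difference was -885 nt and the unadjusted p passed above 0.05 (exact permutation p = 0.139). Leaving out any other naïve mouse, mild EAE mouse 3 or severe EAE mouse 1, 2 or 6 also raised the p past 0.05 (exact permutation p = 0.0556 to 0.0714), while leaving out severe EAE mouse 5 gave -1670 nt (exact permutation p = 0.0119, adjusted p = 0.467). Per 1000000 covered nt it was -685 nt (exact permutation p = 0.0167).

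Most of the Syt1 signal was intronic, 55 of its 64 footprints, of which 37 were in naïve mice. Outside exons the covered nt were 2549, 1506 and 1013 in the naïve group, 0, 472 and 433 with mild EAE and 0, 0, 1835 and 0 with severe EAE. The order of the mice was thus that of the whole gene. Intron 4 takes 27.3% of the gene and held 29 of the 55 intronic footprints (52.7%), in naïve, mild EAE and severe EAE mice alike (16, 4 and 9 footprints). Introns 5 and 8 held 5 and 7 footprints, all in naïve mice.

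No stretch of Syt1 was shared by 2 mice of the same group. The stretch at chr10:108804619-108804748 was covered by at least 2 of naïve mouse 1, mild EAE mouse 4 and severe EAE mouse 5 at each base. In intron 4, naïve mouse 1 and severe EAE mouse 5 also shared stretches of 132 and 136 nt, and both covered the same parts of exons 1 and 3 in the 5′ UTR (81 and 101 nt). In intron 10, naïve mouse 3 and severe EAE mouse 5 shared 134 nt. Naïve mouse 2 shared nothing with another mouse in this gene and held a ladder of 7 footprints of 12 to 214 nt within 1137 nt of intron 8. That window repeats itself with a period of 22 nt, at which 65.4% of positions match, and holds 48 TAG, of which 47 lie in GCAGTAG. The printed Syt1 intron 8 sequence is the longest of the 7. Contigs from such a repeat can be placed at more than one of its units, so the ends of these footprints are uncertain.

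Rims1 (ENSMUSG00000041670.16, chr1:22286251-22805994, minus strand) carried 29 footprints in 7 mice. Its covered nt were 1095, 808 and 584 in naïve mice 1, 2 and 3. Mild EAE mice 3, 4 and 7 had 658, 419 and 318 covered nt, and severe EAE mice 1, 2, 5 and 6 had 0, 0, 557 and 0. Every naïve mouse lay above every severe EAE mouse, severe EAE mouse 5 included, while mild EAE mouse 3 lay above naïve mouse 3. The mean was 279 ± 282 nt (SD, n = 7) in EAE and 829 ± 256 nt (SD, n = 3) in naïve mice, a difference of -550 nt (exact permutation p = 0.025, adjusted p = 0.956). Severe EAE mice differed from naïve mice by -690 nt (exact permutation p = 0.0571) and mild EAE mice by -364 nt (exact permutation p = 0.2). Without naïve mouse 1 the difference was -417 nt (exact permutation p = 0.139), without naïve mouse 2 it was -561 nt (exact permutation p = 0.0556), and per 1000000 covered nt it was -238 nt (exact permutation p = 0.108).

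The Rims1 stretch in intron 5, 7477 nt from the nearest exon, was covered in 6 mice of all groups with nearly the same ends. The footprints over it were 378 and 328 nt long in naïve mice 1 and 3, 317, 308 and 318 nt in mild EAE mice 3, 4 and 7 and 303 nt in severe EAE mouse 5. Naïve mouse 2 and severe EAE mice 1, 2 and 6 had none. Of 22628 intronic regions footprinted in any mouse, 201 (0.888%) were footprinted in at least 6 of the 10 mice, and this was the single such region in the 8 genes. Merged over the mice, it held 94.6 UAG per 1000 nt, more than 99.2% of 44259 footprinted regions of at least 100 nt in a single gene, whose median was 8.13. Over chr1:22584531-22584858, naïve and EAE mice averaged 217 ± 188 nt (SD, n = 3) and 177 ± 166 nt (SD, n = 7). Outside it Rims1 had 773, 808 and 256 covered nt in the naïve group, 341, 111 and 0 with mild EAE and 0, 0, 261 and 0 with severe EAE. The difference between the group means was -39.7 nt over the stretch and -510 nt outside it, chosen after the values were seen and given without a test.

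**Figure D3:**
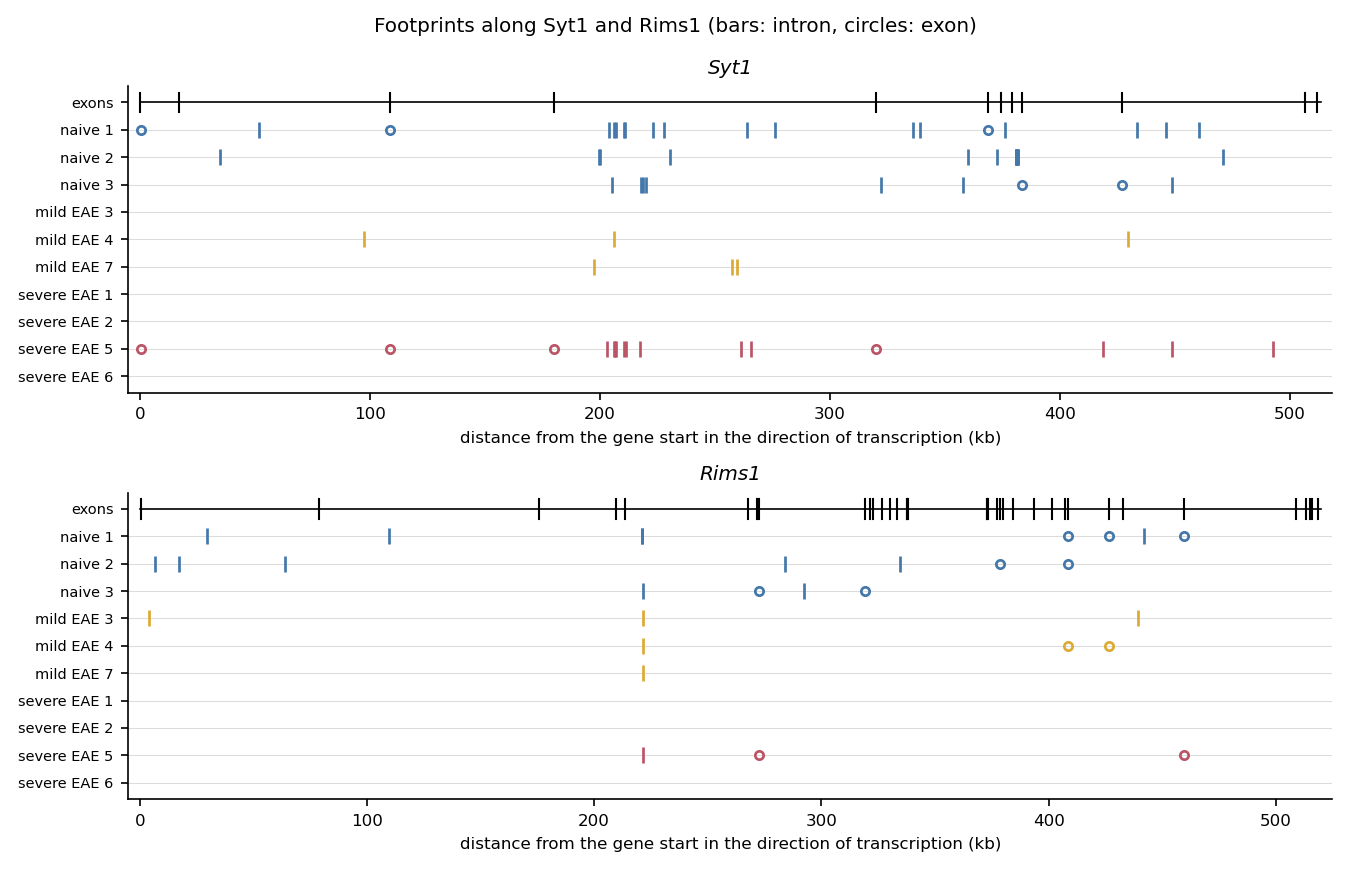
Positions of all footprints along Syt1 and Rims1 (x axis in kb from the start of the gene in the direction of transcription, 1 line per mouse, bars for intronic and circles for exonic footprints, exons at the top). The Rims1 stretch forms a column of 6 mice in intron 5, and the Syt1 footprints spread over the introns, with 29 of the 55 intronic ones in intron 4.

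By annotation, 95 of the 205 footprints (46.3%) had their midpoint in an intron, 76 in coding sequence, 22 in a 3′ UTR and 12 in a 5′ UTR. In naïve mice 63 of 101 footprints were intronic (62.4%, Wilson 95% interval 52.6 to 71.2), in mild EAE mice 16 of 50 (32%, 20.8 to 45.8) and in severe EAE mice 16 of 54 (29.6%, 19.1 to 42.8), of which 48 came from mouse 5. These intervals cover counting error only and treat footprints of a mouse as independent. By mouse the intronic share was 58.7, 75 and 55.6% in naïve mice 1, 2 and 3, 41.7, 36.4 and 25.9% in mild EAE mice 3, 4 and 7 and 33.3% in severe EAE mouse 5, so the naïve mice lay above every EAE mouse with more than 10 footprints on these genes. The pooled share depends on which genes supply the footprints, and Syt1 gave 37 of the 63 naïve intronic ones. Within Syt1 the share was 88.1% in naïve, 100% in mild EAE (6 footprints) and 75% in severe EAE mice. Within Rims1 it was 63.2, 71.4 (7 footprints) and 33.3%. In Syn1, Syn2, Snap25 and Syp it was lower in mild EAE than in naïve mice. The same direction was seen over all genes, with an intronic share of 35.8% in naïve, 16.9% in mild EAE and 20.9% in severe EAE animals. In each of these 7 mice the share in the 8 genes was above that mouse's share over all genes, which ran from 10.6% to 41.6%. The 2 shares follow unlike rules. Footprints on an exon of another gene inside an intron count as intronic in the 8 genes but not over all genes. In mild EAE mice 3 and 7, 2 of 5 and 2 of 7 intronic footprints lie on exons of Timp1, so the excess there is overstated. Of the 95 intronic footprints, 12 matched a transcript of another gene over at least 50 nt at 90% identity or more, 6 in naïve and 6 in EAE mice, and 14 were more than 50% repeat-masked.

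**Figure D4:**
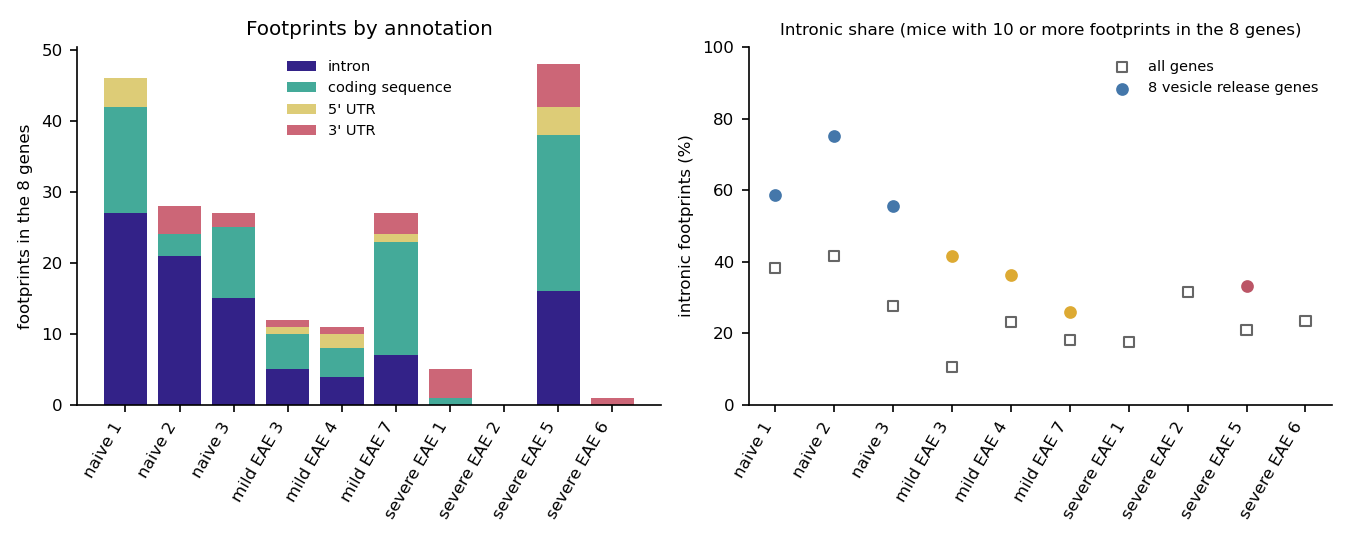
Left, number of footprints on the 8 genes in each mouse, stacked by intron, coding sequence, 5′ UTR and 3′ UTR, and right, the percentage that is intronic in the 8 genes (circles, mice with 10 or more such footprints) and in all genes (squares). Introns are the largest part in naïve mice (15 to 27 footprints), severe EAE mice 1 and 6 have exonic footprints only, 5 and 1 of them, and each circle lies above the square of its mouse. Circles count footprints on an exon of another gene inside an intron as intronic, and squares do not.

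Many footprints ended at exon borders. Of the 205 footprints, 21 covered an exon whole and 73 had an end within 2 nt of an exon end. In 34 cases both exons of an annotated splice junction were footprinted to within 2 nt of it in the same mouse, with 13 in naïve, 11 in mild EAE and 10 in severe EAE mice. Such pairs were found in all 8 genes, with 7 in Snap25, 6 in Syn1, 5 each in Syn2 and Syp, 4 each in Syt1 and Rims1, 2 in Vamp2 and 1 in Sv2a.

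Stretches of at least 2 nt shared by 2 or more mice of a group numbered 3 in naïve mice, in Syn2, Snap25 and Rims1, and 8 in mild EAE mice. Severe EAE mice shared 4, in Syn1, Snap25, Vamp2 and Syp. Across any 2 of the 10 mice there were 37 such stretches, 21 in coding sequence, 9 in UTRs and 7 in introns. Within the groups, 2 of the 3 naïve stretches, 2 of the 8 in mild EAE mice and 0 of the 4 in severe EAE mice were intronic. Shared by 3 or more mice of a group were 0 in naïve mice, 2 in mild EAE mice (Snap25 exon 6 and the Rims1 stretch) and 1 in severe EAE mice (the Syp 3′ UTR).

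The content of UAG and AGGU in footprints was compared with flanks of equal length 200 nt away, over the 195 footprints that touch no exon of another gene. UAG stood at 19.1 per 1000 nt in naïve footprints and 14.1 in their flanks (ratio 1.36), and at 17.8 and 11.7 in EAE mice (ratio 1.53). AGGU stood at 6.27 and 3.89 in naïve mice (ratio 1.61) and at 7.22 and 4.16 in EAE mice (ratio 1.73). The Rims1 stretch decided these values. Without its 6 footprints, a comparison chosen after seeing the data, the ratios were 1.01 in naïve and 0.770 in EAE mice for UAG and 1.17 and 0.907 for AGGU. Across the rest of the 8 genes, then, UAG was as frequent beside footprints as within them in naïve mice, and more frequent beside them in EAE mice. Flanks of exonic footprints often lie in introns, which differ in base composition.

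Other genes of the release machinery were taken from a list of 58, of which 52 were footprinted. In EAE 36 of these were lower and 16 higher, where 53.7% of all genes were lower, with a median difference of -84.7 nt against -11.6 nt over all genes. These medians and direction counts, too, compare sets of unlike coverage. Of all genes 16.6% were footprinted in all 3 naïve mice, and of the 52 genes 30 were. By the exact permutation test 0 passed an adjusted p of 0.05, and 4 lower and 0 higher genes had an unadjusted p under 0.05, which were Sh3gl2, Rims2, Rab3c and Rimbp2, of which the last 3 are named after their values were seen. Of all genes, 2.98% were lower at that p, and 415 of the 416 genes at that p were lower. Of the active zone genes 17 of 18 were lower (median -186 nt). Lower were also 5 of 6 vesicle recycling genes and 7 of 10 vesicle proteins. SNAREs and their partners divided into 5 lower and 7 higher and calcium sensors into 2 lower and 4 higher. All these counts are to be read against the 53.7% of all genes that were lower, a set of unlike coverage. Pclo, which encodes the active zone scaffold piccolo, had the most covered nt, with 4429, 1778 and 4358 in the naïve group, 547, 1382 and 3292 with mild EAE and 154, 0, 3760 and 0 with severe EAE (difference -2217 nt, exact permutation p = 0.075). Unc13a, which encodes the priming factor Munc13-1, had 1936, 399 and 1382 in the naïve group, 1499, 589 and 1977 with mild EAE and 0, 0, 1823 and 0 with severe EAE (difference -398 nt, exact permutation p = 0.583). Its paralogue Unc13c differed by -582 nt (exact permutation p = 0.392), and Dnm1, which encodes the membrane scission enzyme dynamin-1, by -239 nt (exact permutation p = 0.517). In these 4 genes, among the most covered of the list, the groups overlapped. Every naïve mouse lay above every EAE mouse in 1 of the 52 genes, where 0.961% of all genes showed this. It was Sh3gl2, which encodes the endocytic protein endophilin A1. It had 764, 242 and 146 covered nt in naïve mice and at most 141 in EAE mice (difference -349 nt, exact permutation p = 0.00833, adjusted p = 0.930).

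Likeness to the sum of the 8 was taken as the Pearson r of log2(covered nt + 1) over the 10 mice. The genes most like it, among 3638 genes footprinted in at least 5 mice, were Sntg1 and Rbfox1 (Pearson r = 0.994 each), Cadm2 (0.991), Nfasc (0.990) and Ank3 (0.990). On the same log2 scale, the correlations of the 8 genes with their own sum ran from 0.448 for Vamp2 to 0.889 for Syn1. These are descriptions over 10 mice that share list length, and the log2 sum of the 8 genes itself followed the log2 number of footprints of a mouse with r = 0.942.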

How the data were processed

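CLIPseq libraries from the spinal cords of 10 mice were used. Their 10 inputs and 2 pooled IgG controls were not analysed here as samples. The authors trimmed the reads with bcl2fastq (2.19.0.316) and fastp, built contigs from each library (rnaSPAdes) and placed them on GRCm38 by spliced alignment (minimap2 2.17). They then removed sites seen in the matched input or pooled IgG data and merged the rest with bedtools (versions from the submitters' processing notes). The deposited lists hold footprint positions as chromosome, start and end for each mouse, without score, strand or read count. Read depth at a footprint cannot be recovered from them, and a gene without a footprint is one where none was retained. The sequencing depth of the libraries was not used here. Of 136207 footprints, 135639 lay on chromosomes of GRCm38 and 0 passed a chromosome end.

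Footprints were assigned to GENCODE M21 gene spans at an overlap of at least 1 nt and annotated at their midpoint. Covered nt per gene and mouse were compared by an exact two-sided permutation test on the difference in means, with Benjamini-Hochberg adjustment over all genes footprinted in the mice compared. In simulated data for all EAE against naïve mice (13948 genes), the test recovered 200 of 200 seeded genes at the smallest possible p. Of the seeded shared stretches, 200 of 200 were recovered. Recovery of a gene refers to that unadjusted p and not to the adjusted threshold. Whether the test would find differences of the size and spread seen in these mice was not tested. Named genes were the 8 genes, the 5 genes of the release list with the most covered nt (1 is not reported here), those whose naïve and EAE mice were separate, and the 5 genes most like the sum. The genes and lists were chosen with earlier results of these data known. Alternatives were covered nt per 1000000 covered nt, log2(covered nt + 1), footprint numbers, other limits on footprints and stretches, leaving out each mouse, and same-numbered mice as a block. Labels do not pair animals, and same-numbered mice had correlations of -0.0466, 0.177 and 0.0340 in their deviations from group means. Python 3.11.15, numpy 2.4.6, scipy 1.17.1, pysam 0.24.0, samtools 1.23.1, BLAST 2.17.0 and matplotlib 3.10.9 were used. Sequences came from the GRCm38 reference, and strand is that of the gene.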

Additional observations from a re-analysis of the deposited data

Results flagged for a closer look

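Severe EAE mouse 5 stood apart from the other 3 severe EAE mice in the covered nt of 4 of the genes and in their sum. Its gap to the nearest mouse, as a share of the range of the 4 mice, was 1 for Syn2, 0.9797 for Snap25, 1 for Syt1, 1 for Rims1 and 0.911 for the sum, each above the 95% critical value of Dixon's test. For Syn2, Syt1 and Rims1 the other 3 severe EAE mice were at 0 covered nt, so this share is 1 whatever the value of mouse 5. The sum contains these genes and is not a separate flag. The usual rate of about 1 in 20 groups flagged by chance does not hold with such ties. This mouse also had the longest footprint list, 31870 against 209 to 2670 in the other severe EAE mice. Its clinical score was 2.5, as was that of severe EAE mouse 1. The authors describe this animal as an outlier that, unlike the other severe EAE mice, had been in remission shortly before sacrifice. Whether that bears on its footprints was not tested.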

How the results depend on the processing

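No gene passed the adjusted threshold under any alternative (lowest adjusted p 0.467), which says nothing about stability, since with so few mice the smallest possible p hardly allows a gene to pass after adjustment over all genes. The direction of Syt1, Rims1, Syn2 and the sum of the 8 genes was lower in EAE under each alternative run, but an unadjusted p under 0.05 was lost on the log2 scale (exact permutation p = 0.0583 for Syt1 and 0.175 for Rims1) and when single mice were left out, for Syt1 naïve mouse 1, 2 or 3, mild EAE mouse 3 or severe EAE mouse 1, 2 or 6, and for Rims1 naïve mouse 1 or 2. With same-numbered mice as a replicate block (3 pairs, smallest p 0.25), 0 of 11094 genes passed, the sum differed by -3693 nt and Syp by -102 nt. The sign of small differences turned as follows, in covered nt of EAE minus naïve mice. Leaving out 1 mouse gave -167 (without severe EAE mouse 5) to 2.29 (without naïve mouse 1) for Syn1, -396 to 31.4 for Snap25, -202 to 1.93 for Vamp2, -125 to 24.2 for Sv2a and -14.3 (without mild EAE mouse 7) to 99.8 for Syp. Snap25 and Vamp2 turned without naïve mouse 1 and Sv2a without naïve mouse 3. Sv2a gave 25.2 per 1000000 covered nt and Syp -2.55 on the log2 scale. Without severe EAE mice 2 and 6, whose lists hold under 1000 footprints (added after seeing the data), Syn1 gave 9.13 and Sv2a 43.7, and per 1000000 covered nt Syn1 gave 46.7, Vamp2 31.0 and Sv2a 85.5. On the same reduced set, Syt1 (-1193 nt, exact permutation p = 0.161) and Rims1 (-439 nt, exact permutation p = 0.0536) stayed lower without passing 0.05. Footprints of at most 200 nt gave ratios of 0.8 for UAG and 0.952 for AGGU in EAE mice and 0.921 for UAG in all mice. Without the Rims1 stretch these were 0.770, 0.907 and 0.900. Stretches shared by at least 3 mice numbered 0 in naïve, 2 in mild EAE and 1 in severe EAE mice. Leaving out 1 mouse, those shared by at least 2 ranged from 0 to 3 in naïve, 3 to 6 in mild EAE and 1 to 4 in severe EAE mice. The cause of these changes was not tested.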
